A study of Mus musculus with 82 samples.

Results

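The transcription factor genes of the primitive streak T, Eomes, Mixl1, Gsc and Lhx1 were followed through every list of called regions of the timecourse. These 5 genes were taken by name from the 21938 protein-coding genes of the assembled mouse chromosomes, and each was read in 2 windows of the mm10 build. The gene window was the gene body with 10 kb on each side, and the promoter window was the 1 kb on each side of the transcription start. The value of a gene in a list, called coverage here, is the percent of that window that lay inside called regions.

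The primitive streak is the site of the gastrulating embryo where epiblast cells leave their sheet and become mesoderm and definitive endoderm, under Wnt and Nodal signals. T (Brachyury) and Eomes are T-box factors. Eomes acts early, upstream of cardiac mesoderm and endoderm, whereas T is kept in the tail bud and the notochord as the axis elongates. Mixl1 is a paired-like homeodomain factor of the streak, Gsc a homeodomain factor of the organizer at its anterior end, and Lhx1 a LIM homeodomain factor of the anterior streak that is later used in intermediate mesoderm. H3K27ac is an acetylation found at active promoters and enhancers, H3K27me3 is the methylation laid down by Polycomb complexes on silent developmental genes, and cohesin (measured through its subunit RAD21 and its loader NIPBL) extrudes loops that CTCF can stop.

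The samples were stembryos, pooled aggregates of mouse embryonic stem (mES) cells that elongate like a posterior body axis. All stages after 48 h had received a pulse of the Wnt agonist Chiron between 48 h and 72 h, and the 48 h libraries had not. From 108 h only elongating stembryos were taken. Mutant lines lacked CTCF binding sites (CBS) of the HoxD cluster on chromosome 2, which carries none of the 5 genes. Del(CBS1-2) stembryos (H3K27ac at 120 h and 96 h, 2 libraries each) carried the deletion of CBS2 on top of that of CBS1, Del(CBS1) stembryos (the same stages and numbers) lacked CBS1 alone, and both lines were homozygous clones made by CRISPR from wt EmbryoMax 129/SVEV mES cells. Del(CBS1-5) mES cells (H3K27me3 at 96 h, 2 libraries) were derived from mouse blastocysts, so that the origin of the line and its deletion cannot be told apart. The wt references were 2 H3K27ac libraries at each of 120 h and 96 h and 2 H3K27me3 libraries at 96 h, called replicate libraries below. A further 9 wt H3K27ac libraries (48, 72, 84, 96, 108, 120, 132, 144 and 168 h) and 4 wt H3K27me3 libraries (72, 96, 120 and 144 h) had 1 library per stage and are called single libraries. RNA polymerase II (PolII, 8 lists), its elongating form phosphorylated on serine 2 (pSer2 PolII, 5), NIPBL (8), RAD21 (16 wt), CTCF (2 wt) and CDX2 (3) completed the wt data.

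The files hold 80 lists, 61 of them wt, of which the mutant RAD21 and CTCF lists entered no comparison. The 80 lists held 147 to 71196 regions, and the lowest local background within a list, which stood in for sequencing depth, ran over 1.12 to 7.21 fragments. The percent of all promoters with an H3K27ac region stayed at 46.1 to 59.8% over the 21 H3K27ac lists. Replicate lists shared 64.1 to 89.0% of their regions and at most 29 regions with the same start and end, so no library was taken as deposited more than once. According to the methods of the study, mutants and wt were compared on biological duplicates, each a pool of stembryos, and some but not all replicates came from separate cultures. The labels do not say which, and p-values measure only the spread between these libraries, part of which may be technical. Among H3K27ac promoters of other cell types in the wt single libraries from 48 h to 168 h, paraxial mesoderm markers had regions at 2, 4, 2, 2, 6, 6, 6, 5 and 3 of 6 promoters and pluripotency markers at 4, 5, 2, 3, 2, 2, 1, 1 and 2 of 6. Endoderm markers had regions at 0 to 2 of 5 promoters and trophoblast markers at 0 to 3 of 5. The part of these cell types in the values below was not tested, and in bulk libraries fewer cells of a type and less mark per cell cannot be told apart.

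The 5 genes lie on 5 chromosomes. T (ENSMUSG00000062327.10) occupies chr17:8434423-8442496 on the plus strand, Eomes (ENSMUSG00000032446.14) chr9:118478212-118486132 on the plus strand, and Mixl1 (ENSMUSG00000026497.7) chr1:180693043-180697034 on the minus strand. Gsc (ENSMUSG00000021095.5) lies at chr12:104471209-104473330 and Lhx1 (ENSMUSG00000018698.15) at chr11:84518284-84525535, both on the minus strand. The windows of 2 genes reach into a neighbor. That of Lhx1 includes the start of Aatf, 12013 bp downstream of the Lhx1 start, where the region chr11:84512726-84514260 was acetylated in 13 of 13 wt lists. That of Mixl1 includes the end of Lin9, which is transcribed toward it.

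The promoters of the T-box pair are shown because the T promoter had H3K27ac at every stage and Eomes had none from 108 h on. The stretches are the 250 bases before the RefSeq start in GRCm38.p6 on the plus strand, chr17:8434173-8434422 for T and chr9:118477939-118478188 for Eomes, and capitals mark matches to 7 words searched on both strands.
T promoter: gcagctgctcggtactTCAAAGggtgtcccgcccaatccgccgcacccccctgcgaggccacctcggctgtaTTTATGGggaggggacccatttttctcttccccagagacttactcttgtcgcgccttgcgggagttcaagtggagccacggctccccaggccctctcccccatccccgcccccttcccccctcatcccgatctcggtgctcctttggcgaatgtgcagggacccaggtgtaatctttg
Eomes promoter: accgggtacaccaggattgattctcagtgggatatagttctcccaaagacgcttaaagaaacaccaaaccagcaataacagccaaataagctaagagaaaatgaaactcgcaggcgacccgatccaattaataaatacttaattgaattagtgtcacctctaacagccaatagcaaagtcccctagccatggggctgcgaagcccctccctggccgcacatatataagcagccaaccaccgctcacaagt

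The words were CTTTGA (TCF/LEF), GGTGTGA (T-box site), TTTATGG and TTTATTG (CDX), TAATCC (GSC/OTX homeodomain), AATCCACA (FOXH1) and CAGACA (SMAD). The T promoter held the TCF/LEF word on its minus strand, read as TCAAAG from −234 bp of the start, and the CDX word TTTATGG from −178 bp. None of the 7 words was found in the 300-base promoters of Eomes, Gsc and Lhx1 (250 bases before the start to 50 after it), and 4 of the 5 genes had a RefSeq promoter to search. Among all 32851 promoters of that length, 16% held CTTTGA, 2.75% TTTATGG, 4.60% TTTATTG, 3.98% GGTGTGA, 7.06% TAATCC, 0.855% AATCCACA and 21% CAGACA. A match to a short word describes the letters only and says nothing of binding.

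T kept an acetylated promoter at every stage measured. In the single wt libraries from 48 h to 168 h, H3K27ac covered 1.49, 8.77, 6.01, 7.93, 7.82, 4.32, 3.92, 3.06 and 6.53% of the T window. The values were highest at 72, 96 and 108 h and lowest at 48 h, before the Chiron pulse, and the 168 h value lay above that of 84 h. Within the promoter window the same libraries gave 20.9, 55.0, 60.2, 75.8, 70.1, 31.7, 33.7, 33.1 and 66.7%. The region behind these values, chr17:8432365-8434974, was called in 13 of 13 wt H3K27ac lists. The fragments piled up at its highest promoter summit numbered 22 at 48 h, then 153, 107, 187 and 100 at 72, 84, 96 and 108 h, and 68, 59, 38 and 44 at 120, 132, 144 and 168 h. Set over the background of each list, these pileups were 5.12, 49.2, 37.5, 48.3, 27, 20.7, 15.1, 10.6 and 12.9. The pileup thus stayed low at 144 h and 168 h, including the stage where coverage was again high. The fold enrichment that the caller printed at T at 72 h was only 3.89, because the local background it used there was 38.6 fragments, against 3.11 in the list as a whole.

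Eomes carried H3K27ac only at the early stages. Its window was covered to 6.58, 9.51, 1.78 and 1.02% at 48, 72, 84 and 96 h and to 0% in all 5 single libraries from 108 h on. The replicate libraries were at 0% as well, including both wt libraries of 96 h, so that the single 96 h library (promoter pileup 13 fragments) stood apart from them. The promoter window was covered at 72, 84 and 96 h to 31.1, 22.3 and 14.2%, with pileups of 37, 16 and 13 fragments. That acetylation sat over the first coding part of the gene (chr9:118478610-118479511). At 48 h and 72 h the regions lay farther out, upstream at chr9:118476619-118477313 and downstream at chr9:118487663-118488288 and chr9:118488853-118489783.

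Mixl1 was acetylated most in the libraries right after the Chiron pulse and had no region at the last stages. Its window was covered to 0.959% at 48 h, 6.92, 5.84, 4.71 and 5.39% at 72, 84, 96 and 108 h, 1.35 and 1.13% at 120 h and 132 h, and 0% at 144 h and 168 h. Promoter coverage was 11.5, 44.5, 36.6, 44.5, 49.2, 16.2 and 13.5% over the 7 stages up to 132 h. Pileups at the promoter were 14, 46, 36, 29, 24, 11 and 12 fragments. A distal region, chr1:180706233-180707486 in intergenic sequence with its 72 h summit at −10047 bp from the start, was called at 72, 84, 96 and 108 h and in neither earlier nor later single libraries.

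Gsc and Lhx1, the anterior streak genes, behaved differently from each other. Gsc had 1.87, 3.66, 2.73 and 2.02% at 48, 72, 84 and 96 h, 0% at 108, 120 and 132 h, and 1.49 and 1.5% at 144 h and 168 h. The Gsc promoter window carried regions at 48, 72 and 84 h (3.45, 25.3 and 15.5%, with pileups of 18, 43 and 25 fragments, the first at a summit just outside the window) and again at 144 h and 168 h (16.4 and 16.6%, 14 and 17 fragments). At 96 h the acetylation was 5787 to 7094 bp downstream of the start instead (chr12:104466236-104467543, intergenic), and the promoter window was empty. Lhx1 had 4.79, 5.90, 5.03, 7.07, 12.2, 5.30, 4.43, 4.84 and 4.56% from 48 h to 168 h, most of it at the start of Aatf. Without the Aatf region the Lhx1 values were 0, 1.08, 1.44, 1.78, 7.49, 1.08, 0, 0 and 0%, with the highest at 108 h. The Lhx1 promoter (chr11:84524678-84526706) was covered only at 108 h and 120 h among the single libraries, to 76.8 and 14.6% with pileups of 67 and 26 fragments, and an intron region (chr11:84522721-84523216) was called at 72, 84 and 96 h. Both replicate wt libraries of 96 h had the promoter region too (35 and 22 fragments), unlike the single library of that stage.

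**Figure D1:**
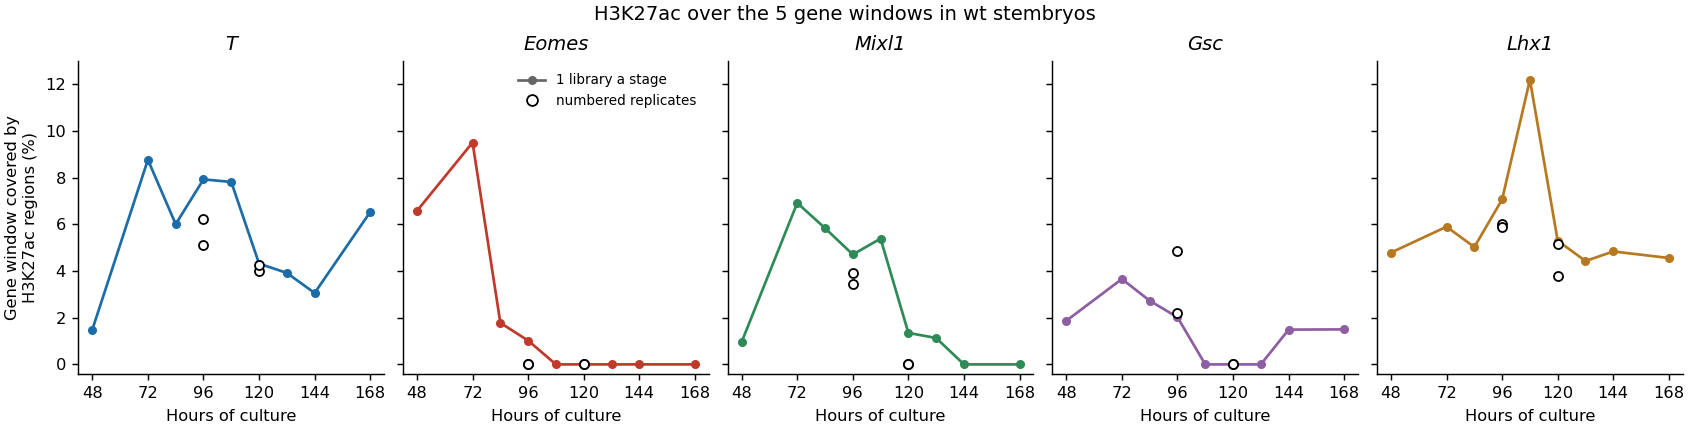
H3K27ac coverage of the gene window of each gene (vertical, percent) by stage in hours (horizontal) in wt stembryos, with single libraries and replicate libraries as separate symbols. Eomes reached 9.51% at 72 h and was at 0% from 108 h, Mixl1 ended at 0% from 144 h, and T never went below 1.49%.

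**Figure D2:**
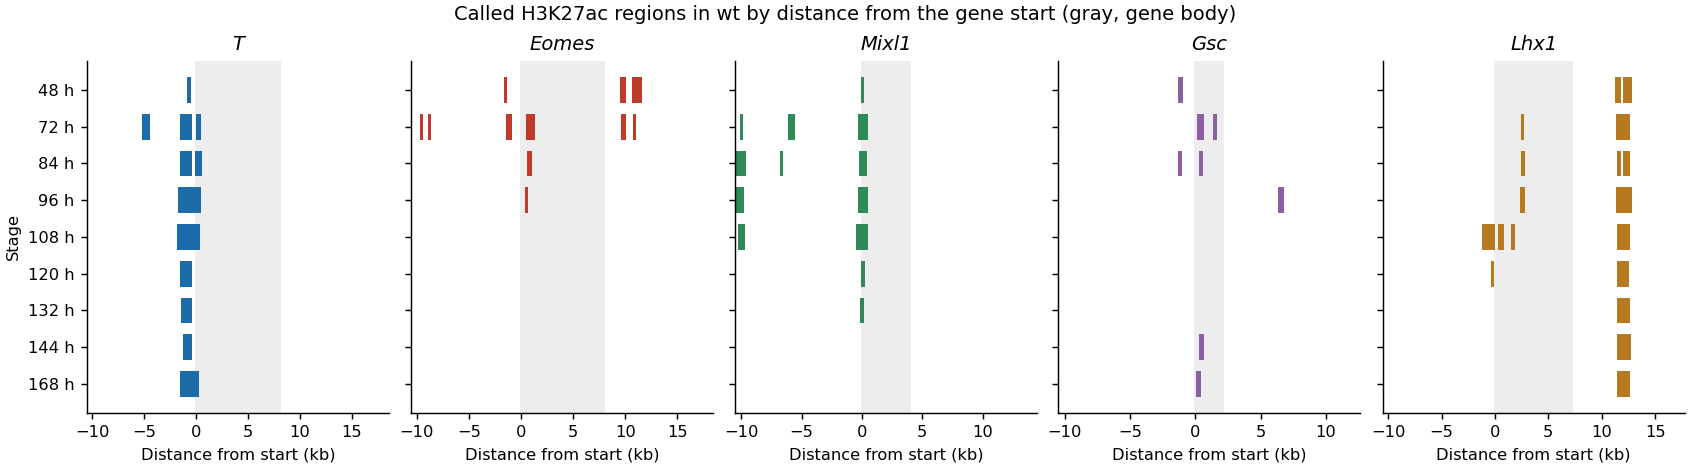
Positions of the H3K27ac regions called around each gene (x axis, distance from the transcription start in kb along the direction of transcription) in the single wt libraries by stage (y axis). Bars are called regions, drawn to scale, and they show the constant T promoter region, the early flanking regions of Eomes and the late Lhx1 promoter region at 108 h.

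The question of change over time was tested with limma on coverage over the 13 wt libraries, with a spline of hours and a term for single against replicate libraries. It called 39.4% of the genes tested (6969 of 17672), so a call on its own is common. T (F = 8.11, adjusted p = 0.0157), Eomes (F = 7.39, 0.0200), Mixl1 (F = 32.4, 2.59e-04) and Gsc (F = 7.37, 0.0201) passed, and Lhx1 did not (F = 1.42, adjusted p = 0.378). The Lhx1 test included the start of Aatf, and the window without that region was not tested. The Mixl1 call held under every alternative run. The T call was lost without the 48 h library (adjusted p = 0.0688), by rank of fold enrichment (0.523) and with a spline of 2 degrees of freedom (0.549). The Gsc call was lost with the stricter peak threshold (adjusted p = 0.216), in the promoter window (0.423), with lists of equal length (0.386) and with the spline of 2 degrees of freedom (0.28), and that of Eomes in the promoter window (0.177).

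A distal element of Mixl1 and one of Eomes are shown as the 201 bases around their 72 h summits. Both regions were called in no single wt library after 108 h, which was also so for other distal regions of these genes. The Mixl1 stretch is chr1:180706981-180707181 on the minus strand, the strand of the gene, and the Eomes stretch is chr9:118489031-118489231 on the plus strand, both from RefSeq GRCm38.p6. Capitals mark the SMAD word CAGACA or its reverse complement TGTCTG.
Mixl1 upstream summit: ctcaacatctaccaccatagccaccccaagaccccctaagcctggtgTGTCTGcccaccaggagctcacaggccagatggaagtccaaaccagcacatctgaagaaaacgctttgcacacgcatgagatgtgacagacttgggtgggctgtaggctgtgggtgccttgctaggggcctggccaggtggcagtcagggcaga
Eomes downstream summit: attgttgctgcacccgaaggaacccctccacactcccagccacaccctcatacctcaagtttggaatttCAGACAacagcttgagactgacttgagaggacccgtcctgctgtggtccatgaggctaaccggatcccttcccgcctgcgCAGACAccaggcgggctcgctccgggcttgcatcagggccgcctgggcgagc

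The word CAGACA stood under 5 of the 16 summits of the 5 genes at 72 h (31.2%), against 16.6% of the 47221 summits of that whole list. At the Eomes element it occurred at 10888 and 10968 bp after the start. It also stood under summits not shown, at 9754 bp for Eomes, −5659 bp for Mixl1 and −4999 bp for T. TTTATTG was present under 1 of the 16 summits (6.25%, against 2.1%), and the other words under none. With 16 sequences from 5 loci these shares are given as a description.

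PolII at T was highest at 72 h and low at the last stages, where the promoter was still acetylated. It covered 13.3, 9.79, 7.11, 4.38, 4.50, 3.01, 3.85 and 1.25% of the T window at 72, 84, 96, 108, 120, 132, 144 and 168 h. Promoter pileups of PolII at T were 230, 92, 68, 40, 41, 18, 33 and 15 fragments, or 102, 43.0, 60.7, 20.1, 27.5, 8.33, 11.1 and 4.85 times the background of the list. A further PolII region past the end of T, with its summit 8466, 8574 and 8599 bp after the start, was called at 72, 84 and 96 h (161, 51 and 25 fragments). Elongating pSer2 PolII was called at the same end of the gene at 72 h, with 708 fragments at a summit other than its strongest. The pileup at the strongest summit was not solved. Its coverage of T was 12.8, 5.86, 11.3, 1.22 and 0% at 72, 84, 96, 120 and 144 h, the last from 3 libraries that the authors pooled into 1 list.

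At Eomes, Mixl1 and Gsc, PolII was called at few stages. Eomes had PolII at 72 h (2.53%, 25 fragments at the promoter), and at 84 h (0.487%, 9 fragments), with 0.595% at 108 h in a region 14363 bp after the start. Mixl1 had it at 72 h and 84 h (3.76 and 3.45%, 55 and 22 fragments). Gsc had PolII at 72 h alone (2.54%, 34 fragments). Besides T, Lhx1 was the one gene of the 5 with promoter PolII after 84 h. Its promoter window was covered to 0% at 72 h and to 31.8, 20.9, 32.3, 22.9, 18.9, 9.20 and 14.0% from 84 h to 168 h, with pileups of 21, 33, 36, 42, 12, 16 and 14 fragments. Set over the background of each list, these were 9.81, 29.5, 18.1, 28.2, 5.56, 5.39 and 4.53. The 72 h PolII list was the longest (20672 regions, 53.2% of all promoters). Later PolII lists held 12304 to 15855 regions and reached 45.0 to 50.3% of promoters.

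Elongating PolII in the windows was highest at 72 h for 4 of the 5 genes. Eomes and Gsc had 6.83 and 12.5% at 72 h and 0% afterward, and Mixl1 had 14.0, 2.1, 3.83, 3.34 and 0%. The only Gsc region, chr12:104462641-104465410, lay past the end of the gene, with its summit 8870 bp after the start. The Mixl1 regions had their summits 4272 to 6663 bp after its start, at the facing ends of Mixl1 and Lin9, and the source gene cannot be told apart. Lhx1 had 6.01, 0, 8.87, 2.24 and 0%, and its values at 72, 96 and 120 h include a region at the start of Aatf. The pSer2 lists of 84 h and 144 h were short (3987 and 6674 regions, against up to 24177), so the zeros there carry less weight.

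**Figure D3:**
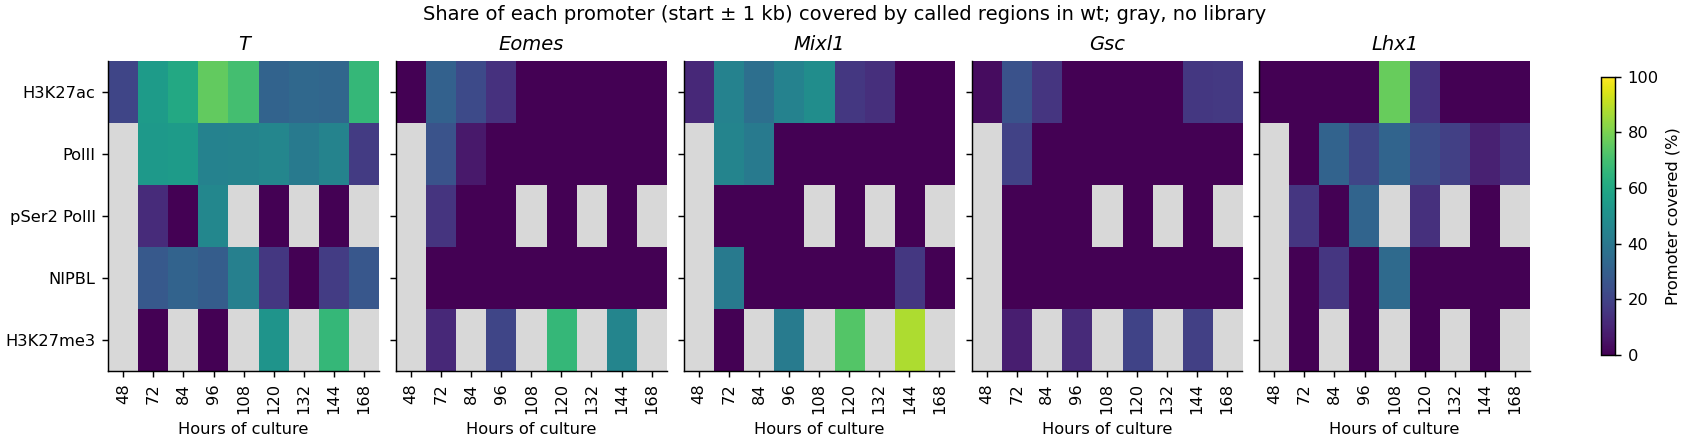
Coverage of the promoter window (percent, color scale) of each gene (panels) by assay (rows) and stage (columns) in wt libraries. The assays are H3K27ac, PolII, pSer2 PolII, NIPBL and H3K27me3. T was covered by H3K27ac at all 9 stages and by PolII at all 8.

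At T and Mixl1 no region of the repressive mark was called at 72 h, and all later lists had one. In wt libraries at 72 h, 96 h (single), 96 h (both replicates), 120 h and 144 h, H3K27me3 covered 0, 2.09, 1.13, 2.60, 6.12 and 5.65% of the T window and 0, 3.46, 5.33, 6.06, 6.11 and 7.30% of the Mixl1 window. At the T promoter it was 0% up to 96 h and 51.8 and 66.7% at 120 h and 144 h. At the Mixl1 promoter it was 0% at 72 h and 41.5, 63.9, 72.7, 73.2 and 87.6% in the later libraries, with pileups of 25, 33, 35, 110 and 50 fragments. Both promoters thus had no region at 72 h, when they carried H3K27ac, and were covered by 120 h.

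Eomes, Gsc and Lhx1 were marked from 72 h on. In the same library order Eomes had 5.92, 11, 17.2, 22.9, 24.5 and 17.0% of its window under H3K27me3 and 11.7, 21, 35.9, 50.1, 66.6 and 45.4% of its promoter. Gsc had 8.39, 11.6, 10.3, 14.2, 14.2 and 16.8% of its window, with 8.25 to 20.1% of the promoter. Lhx1 had 13.8, 5.92, 11.4, 11, 13.9 and 7.31% of its window and 0% of its promoter in all 6 libraries. The local background at the Eomes promoter was 60 fragments at 120 h, against 2.12 in the list, and narrow regions understate the width of a broad domain. The wt series has 1 library at most stages, so its course was not tested.

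Both marks were called on the same bases at some genes. In the single libraries they overlapped over 510 bp at Eomes and 303 bp at Gsc at 72 h, 703 bp at Mixl1 at 96 h (305 to 620 bp between replicate libraries), 513 bp at T and 325 bp at Mixl1 at 120 h, and 859 bp at T at 144 h. These lengths are for the whole gene window, and the overlap at Gsc lay outside its promoter. Another quantity, the share of all promoters holding a region of each mark, on the same bases or not, was 10.9, 12.3, 10.2 and 6.63% at 72, 96, 120 and 144 h. At T and Mixl1 the overlap fell at stages when H3K27ac pileups were already below their highest values. Whether the marks shared nucleosomes or came from different cells cannot be told apart in pooled stembryos.

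CTCF was placed at the same points of T, Eomes and Lhx1 at 72 h and 168 h, and cohesin at part of them. In the CTCF lists of 72 h and 168 h, Eomes had 6 and 4 regions covering 6.32 and 9.83% of the window. All 4 of the later ones had a counterpart at 72 h, with summits 1014 and 1023, 10236 and 10222, 11653 and 11651, and 16077 and 16121 bp after the start. T had CTCF 9802 and 9809 bp and 14084 and 14120 bp after its start and none in the promoter (2.22 and 3.91%). Lhx1 had it at −505 and −515 bp from the start (1.19 and 2.19%). Gsc had no CTCF region, and Mixl1 had 0 and 0.867%.

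RAD21 lay over some of these sites in most wt lists. No wt list had a RAD21 region at the Eomes CTCF sites 10236 and 16077 bp after the start. At the T site 9802 bp after the start RAD21 was called in only a part of the lists. Eomes had RAD21 in 16 of 16 (lowest 2.14%, median 6.38%, highest 9.43% of the window), T in 15 (0, 2.94 and 5.27%) and Lhx1 in 13 (0, 2.73 and 7.05%). Gsc had it in 7 (0, 0 and 3.46%) and Mixl1 in 3 (0, 0 and 3%). Over all genes, 61.5 to 79.4% of windows had a RAD21 region in the wt lists, which held 31823 to 71196 regions. The T region at the CTCF site 14084 bp after the start was called in 15 of the 16 lists, whereas RAD21 at the T promoter was called in 6, all of them between 72 h and 108 h. Of all promoters, 10.9 to 46.4% had a RAD21 region in these lists. At 96 h the T promoter was called in the list at 45.9% and not in those at 17.0 and 16.3%. The second 132 h list, at 46.4%, did not have it either. The time test on RAD21 called 44.1% of genes (8016 of 18168). T (F = 6.93, limma adjusted p = 0.0173) and Lhx1 (F = 9.87, 0.00787) passed, and Eomes (adjusted p = 0.787), Mixl1 (0.522) and Gsc (0.274) did not. Both calls were lost with the stricter peak threshold (adjusted p = 0.132 for T and 0.102 for Lhx1), in the promoter window (0.243 and 0.103 in the same order) and with lists of equal length (0.168 and 0.215), and that of T without the 168 h library (0.124). The Lhx1 coverage and call included the start of Aatf, where RAD21 was called in 9 of the 16 wt lists. All 9 were from 96 h to 144 h, and the Lhx1 window without the Aatf region was not tested.

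NIPBL was called in more lists at T, Gsc and Lhx1 than at Eomes and Mixl1. It covered 1.99, 2.26, 2.11, 4.34, 1.15, 0, 1.27 and 1.93% of the T window from 72 h to 168 h, with the highest value at 108 h. Lhx1 had 0.848, 1.17, 2.74, 4.45, 0.848, 3.79, 4.07 and 3.71%, and Gsc 1.78, 0, 4.16, 3, 3.01, 0.909, 5.51 and 2.03%. None of the Gsc regions touched its promoter window, and those of 72, 96, 108, 120 and 144 h overlapped the acetylated region downstream of Gsc. Without the Aatf region the Lhx1 values were 0, 1.17, 0, 2.54, 0, 0, 0 and 0.925%. Most NIPBL lists thus had a region in the windows of T and Gsc, and at Lhx1 most had one only at the start of Aatf. Eomes had a region in 3 of the 8 lists (0.663, 1.07 and 0.784% at 72, 96 and 168 h) and Mixl1 in 2 (3.41 and 1.35% at 72 h and 144 h). The NIPBL lists differed in length from 4888 to 40490 regions, and 22.1 to 71.5% of all gene windows had a region. Mean coverage over all genes was 0.299, 0.195, 1.88, 0.896, 0.981, 1.09, 2.44 and 2.34% from 72 h to 168 h. CDX2, a caudal-type factor of the posterior axis, had 1 region among the 5 genes, at Gsc at 96 h (chr12:104467548-104467743, 15 fragments), next to the downstream acetylated region.

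The replicate libraries allowed 120 h to be set against 96 h over wt, Del(CBS1) and Del(CBS1-2) together, with genotype in the model. Mixl1, Gsc and T had less H3K27ac at 120 h, and Lhx1 showed no difference past the threshold. Mixl1 had 0, 0 and 1.63% (lowest, median and highest of 6 libraries) at 120 h, against 3.46, 5.00 and 5.74% at 96 h. The groups did not overlap, which was so, with 120 h below 96 h, for 8.49% of all genes. The difference was −4.29 percentage points (SE 0.330, limma adjusted p = 5.07e-05).

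Gsc had 0, 0 and 2.27% at 120 h, against 2.21, 4.71 and 6.31% at 96 h. Only the highest 120 h library, a Del(CBS1-2) one, reached the lowest 96 h value, a wt one. The difference was −3.99 percentage points (SE 0.541, limma adjusted p = 7.54e-04), and it was not called with the stricter peak threshold (adjusted p = 0.591) or by rank of fold enrichment (0.443). All 6 libraries of 96 h carried the region downstream of Gsc, against 1 of 6 at 120 h.

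T had 4.00, 6.11 and 7.49% at 120 h, against 5.13, 7.03 and 9.03% at 96 h. These groups overlapped, and the difference of −1.24 percentage points (SE 0.371, limma adjusted p = 0.0304) was lost without 7 of the 12 libraries, one at a time (adjusted p up to 0.0795). It was also lost in the promoter window (adjusted p = 0.0744), at the stricter threshold (0.112), by rank of fold enrichment (0.191) and without the filter on covered genes (0.0503). The T promoter pileup, which was not tested, was 43 to 98 fragments at 120 h and 126 to 251 at 96 h. Lhx1 had 3.80, 5.86 and 8.34% at 120 h, against 4.99, 6.25 and 8.21% at 96 h (difference −0.640, SE 0.633, limma adjusted p = 0.463). These Lhx1 values include the Aatf region, and the window without it was not tested. Eomes was at 0% in all 12 libraries and was not tested. Of the genes tested, 24.1% were lower at 120 h (4066 of 16858) and 10.6% higher (1779), with a median difference of −0.257. An exact permutation test with stages exchanged within genotype gave a two-sided p = 0.00926 for Mixl1 and Gsc, the smallest its 216 arrangements allow, 0.0185 for T and 0.333 for Lhx1.

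The deletions at HoxD were compared with wt at each stage to see whether these genes on other chromosomes differed. At 120 h, T had 6.51 and 7.49% in Del(CBS1-2) stembryos (mean 7 ± 0.695, SD, n = 2), 6.47 and 5.75% in Del(CBS1) stembryos (6.11 ± 0.506) and 4.00 and 4.28% in wt stembryos (4.14 ± 0.199). Each mutant library lay above both wt libraries. The difference for Del(CBS1-2) was 2.86 percentage points (SE 0.643, limma adjusted p = 0.0272), and that for Del(CBS1) was 1.97 (SE 0.643, adjusted p = 0.165). Higher coverage was common in that comparison. At 120 h, 12.9% of genes were called higher in Del(CBS1-2) (2170 of 16858) and 0.741% in Del(CBS1) (125), and in 59.2% and 43.8% of all genes both mutant libraries lay above both wt ones.

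Library depth moved with the T value at 120 h. The lists held 62965 and 61894 regions in Del(CBS1-2), 62577 and 63020 in Del(CBS1) and 53644 and 51590 in wt, and the backgrounds were 4.53 and 4.16, 3.65 and 3.69, and 3.05 and 2.97 fragments in the same order. Pileups at the T promoter were 98 and 88, 66 and 73, and 60 and 43 fragments, which over the background of each list made 21.6 and 21.2, 18.1 and 19.8, and 19.7 and 14.5. On that scale Del(CBS1-2) still lay above both wt libraries, by less than the gap between the wt libraries themselves. The T call was lost without any of the 4 libraries compared, one at a time (adjusted p 0.05 to 0.143), with the rank of fold enrichment in place of coverage (0.942), in the promoter window (0.0837) and at the stricter threshold (0.0852). The Del(CBS1-2) libraries also carried another tag for the cells in the labels than the wt and Del(CBS1) libraries, and that tag and the genotype cannot be told apart. Paraxial mesoderm promoters with H3K27ac numbered 5 and 6 of 6 in Del(CBS1-2), 6 and 5 in Del(CBS1) and 6 and 5 in wt.

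At 96 h none of the 5 genes passed. T had 7.49 and 9.03% in Del(CBS1-2) (8.26 ± 1.09), 6.81 and 7.25% in Del(CBS1) (7.03 ± 0.307) and 6.23 and 5.13% in wt (5.68 ± 0.778). The differences from wt were 2.58 and 1.35 (limma adjusted p = 0.142 and 0.561). Mixl1 had 5.36 and 4.97% in Del(CBS1-2), 5.74 and 5.02% in Del(CBS1) and 3.46 and 3.93% in wt, with differences of 1.47 and 1.69 (adjusted p = 0.330 and 0.374). All mutant libraries lay above both wt libraries at T and Mixl1, which held for 25.4% of all genes in Del(CBS1-2) and 22.0% in Del(CBS1). At 96 h, 0.219% of genes were called higher in Del(CBS1-2) (37) and 0% in Del(CBS1), where 1627 genes were under an unadjusted 0.05.

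Gsc had 6.31 and 5.56% in Del(CBS1-2), 3.48 and 4.58% in Del(CBS1) and 4.85 and 2.21% in wt at 96 h. The 2 wt libraries differed from each other by more than the Del(CBS1) libraries did from either. At 120 h Gsc had 2.27 and 0%, 0.782 and 0%, and 0 and 0% in the same order of genotypes, and Mixl1 had 1.63 and 0%, 1.15 and 0%, and 0 and 0%. Each mutant had 1 of 2 libraries with the distal Mixl1 region at 120 h, against 0 of 2 in wt, whereas no replicate library of any genotype had a region at the Mixl1 promoter at that stage.

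Lhx1 was read without the Aatf region. It had 1.21 and 2.98% in Del(CBS1-2), 2.73 and 4.52% in Del(CBS1) and 1.68 and 0% in wt at 120 h, and 1.65 and 4.19%, 4.28 and 2.91%, and 2.1 and 2.24% at 96 h. Its promoter was acetylated in all 8 mutant libraries and in 3 of 4 wt libraries, with 15 fragments in the 1 wt library of 120 h that had it and 26 to 35 in the 4 mutant libraries of 120 h. Over the background of each list these pileups were 4.92 in wt and 7.06 to 9.49 in the mutants. Of all promoters, 49.6 to 53.4% had a region in the mutant libraries and 46.1 to 51.4% in the wt ones. For the whole window, differences of Lhx1 from wt were 1.34 and 2.96 at 120 h for Del(CBS1-2) and Del(CBS1) (limma adjusted p = 0.433 and 0.207). Whether the change between stages differed between a mutant and wt was tested directly, and none of the 8 tests of these genes passed (adjusted p 0.668 to 0.990).

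**Figure D4:**
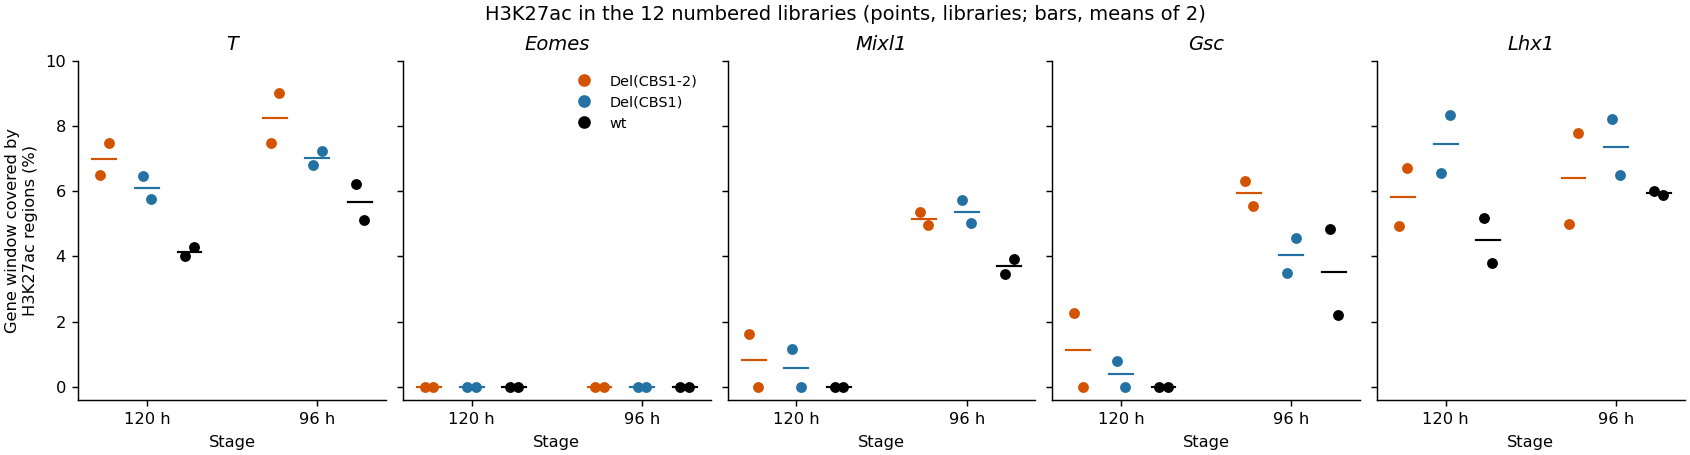
H3K27ac coverage of the gene window (percent, y axis) in each replicate library of Del(CBS1-2), Del(CBS1) and wt stembryos, with 120 h left of 96 h. Points are libraries and lines are means of 2. Mixl1 and Gsc were near 0% at 120 h in all 3 genotypes, and T at 120 h was at 7% on average in Del(CBS1-2) and 4.14% in wt.

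H3K27me3 in Del(CBS1-5) stembryos at 96 h was lower on average at each of the 5 genes, and no gene of the 6954 tested was called lower (0%) or higher (786 were under an unadjusted 0.05). Mixl1 had no region in either Del(CBS1-5) library (0 and 0%), against 5.33 and 6.06% in wt (5.70 ± 0.519, SD, n = 2). The difference was −5.70 percentage points. Mixl1 entered the fit only through the wt libraries, and no p is given for it. Eomes had 7.96 and 13.9% in Del(CBS1-5), against 17.2 and 22.9% in wt (difference −9.09, SE 3.67, adjusted p = 0.481).

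The other 3 genes had smaller gaps. T had 0.823 and 0% in Del(CBS1-5), against 1.13 and 2.60% in wt (adjusted p = 0.520). Gsc had 2.69 and 13.8%, against 10.3 and 14.2% (0.766), and Lhx1 had 4.88 and 10.7%, against 11.4 and 11% (0.648). At 4 of the 5 genes, all but Gsc, both Del(CBS1-5) libraries lay below both wt libraries, which was so for 41.2% of all genes tested. The first Del(CBS1-5) list was the shortest of the 4, with 7212 regions and a background of 1.43 fragments. The second held 10844 regions with a background of 2.47, and the wt lists held 10192 and 11469 regions with backgrounds of 2.47 and 2.99. The part of list length and depth in these gaps was not tested.

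**Figure D5:**
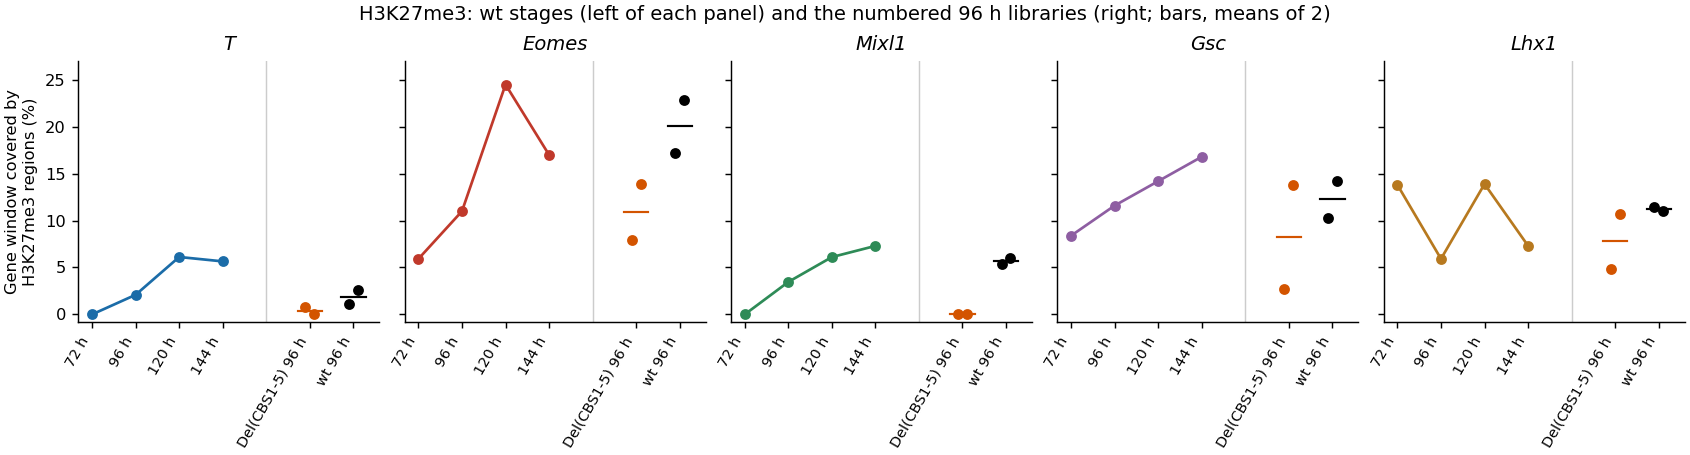
H3K27me3 coverage of the gene window (percent, y axis) by library, with the wt libraries from 72 h to 144 h and the replicate libraries of Del(CBS1-5) left of wt at 96 h. Points are libraries. Mixl1 was at 0% in both Del(CBS1-5) libraries and at 5.33 and 6.06% in wt.

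The 40 other streak and mesendoderm genes listed for comparison gave the setting of these results. Over time in wt, 27 of the 40 passed for H3K27ac, against 39.4% of all genes tested, and 13 for RAD21, against 44.1%. Between 120 h and 96 h, 23 of the 38 tested were lower at 120 h (24.1% of all genes) and 3 were higher (10.6%), with a median difference of −2.33, against −0.257 over all genes. The largest falls in the list were those of Cdx2, the caudal factor (−8.20, SE 0.515), and Msgn1, a bHLH factor of presomitic mesoderm (−8.02, SE 0.885), and the genes higher at 120 h were Cdx1 (3.81), Ripply1 (5.52) and Kdr (0.703).

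At 120 h the list had a higher median difference from wt than all genes in both mutants. In Del(CBS1-2), 10 of the 38 tested were higher (12.9% of all genes), with a median of 1.71 (against 0.661 over all genes). Those higher included Fgf17 (9.90, SE 1.10), Sp8 (9.54, SE 1.29), Fgf8 (7.97, SE 1.35) and Cdx2 (7.13, SE 0.891), which are growth factors and transcription factors of the posterior axis. In Del(CBS1), Nkx1-2 (3.10) and Cdx1 (4.04) were higher (median 1.53, against 0.401). At 96 h, Sp8 (8.00) and Nkx1-2 (3.10) were higher in Del(CBS1-2) and no gene of the list was called in Del(CBS1). The differences of list length and background at 120 h given for T apply to these counts as well. For H3K27me3 in Del(CBS1-5), 32 genes of the list were tested and 0 were called (median −2.04, against −0.472). H3K27ac was found at the promoters of 20, 32, 29, 30, 26, 22, 21, 13 and 21 of the 40 genes from 48 h to 168 h, and at 3, 4, 4, 3, 3, 3, 2, 2 and 2 of the 5. Among all promoters the shares in these libraries were 57.9, 59.8, 56.4, 56.8, 53.2, 50.5, 52.2, 48.6 and 53.1%.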

How the data were processed

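ChIP-seq (H3K27ac, H3K27me3, CDX2, pSer2 PolII) and ChIPmentation (CTCF, RAD21, NIPBL, PolII) libraries had been trimmed with cutadapt 1.16, aligned with Bowtie2 2.3.4.1, filtered with SAMtools 1.8 and called per library with MACS2 2.1.1.20160309, without an input control, by the authors. The 3 pSer2 PolII libraries of 144 h were pooled into 1 list. Each deposited list holds narrow regions on mm10 with a score, a fold enrichment over local background (a ratio) and −log10 p and −log10 q, and the summit position. The score column was not used. Depth is not given in the lists, and a region's absence says only that it was not called at the depth of its library.

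Within a list, summits with the same region start and end were joined into 1 region in Python 3.11.15 (pandas 2.3.3, NumPy 2.4.6, SciPy 1.17.1). Across lists, H3K27ac regions with shared bases were merged, which gave the coordinates printed for most acetylated regions. Gene windows came from GENCODE vM21 with the flanks of 10000 bp and promoters of 1000 bp on each side. Fragment pileups were solved from the fold enrichment and −log10 p of each summit. Summits with the highest −log10 p were left out, and solving worked for at least 99.4% of the others in every list. The lowest local background of a list served as its measure of depth. Coverage was fitted with limma 3.58.1 (R 4.3.3, eBayes with trend) over all genes with a covered base in at least 2 libraries of the fit, with Benjamini-Hochberg adjustment over all genes tested and a threshold of 0.05. The wt timecourse used a natural spline of hours with 3 degrees of freedom and a batch term. Replicate libraries of all 3 genotypes shared one fit. The scripts were tested on simulated data with known changes.

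The genes named are the 5 members, the 40 streak and mesendoderm genes and, for each member, the 3 genes at least 100 kb away whose H3K27ac coverage correlated best with it. The members and lists were chosen with earlier results of these data known. Equal replicate numbers did not pair the libraries: deviations of same-numbered libraries correlated at −0.071 to 0.116 for H3K27ac, and at 0.296 for the single H3K27me3 pair of groups. The alternatives tried were the promoter window, a −log10 q of at least 5, lists of equal length, the rank of fold enrichment within a list, no filter on covered genes, a spline with 2 degrees of freedom, no batch term, a replicate block, adding the single libraries, and leaving out each library. RAD21 and CTCF lists of mutants entered no comparison.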

Additional observations from a re-analysis of the deposited data

How the results depend on the processing

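The numbers of genes called moved by more than 1.5 times in many settings. For H3K27ac over time the count was 6969, with 1732 in the promoter window, 3621 with lists of equal length and 1934 by rank of fold enrichment. For RAD21 over time it was 8016, with 3265 in the promoter window, 4753 at −log10 q of at least 5, 2848 with equal lengths, 4583 by rank and 4926 with a spline of 2 degrees of freedom. For 120 h against 96 h it was 5845, with 1393 in the promoter window and 2375 by rank, where 1238 were higher and 1137 lower, against 1779 and 4066. Del(CBS1) at 96 h had 0, with 3 in the promoter window, 104 at the stricter threshold, 21 with equal lengths, 1 by rank and 31 without the filter. Del(CBS1) at 120 h had 138, with 29 in the promoter window, 39 with equal lengths and 75 without the filter. Del(CBS1-2) at 96 h had 65, with 110 in the promoter window, 189 at the stricter threshold and 125 with equal lengths. Del(CBS1-2) at 120 h had 2186, with 361 in the promoter window, 1066 with equal lengths, 68 by rank and 1429 without the filter. H3K27me3 had 0, with 277 without the filter, where the fit also takes in genes at 0 in all libraries. The replicate block, which the numbers do not justify as a pairing, gave 5641 for 120 h against 96 h, 0 and 83 for Del(CBS1) at 96 h and 120 h, 35 and 1905 for Del(CBS1-2), and 0 for H3K27me3.

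Leaving out 1 library at a time gave 3881 (without 48 h) to 7337 for H3K27ac over time, 5007 (without the first 72 h library) to 9569 for RAD21 (5091 without the second 132 h library), and 4850 to 6200 for 120 h against 96 h. For Del(CBS1) it gave 0 to 33 at 96 h and 16 to 104 at 120 h, for Del(CBS1-2) 12 to 104 at 96 h and 141 (without the second wt library) to 2439 at 120 h, with 253 without the second Del(CBS1-2) library, and for H3K27me3 0 to 0.

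For the single genes, 569 of 619 alternative values kept direction and side of the threshold, 35 lost the call, 2 gained it and 13 changed sign, none of these in a called result. By rank, Lhx1 changed sign for 120 h against 96 h (0.693), Del(CBS1) at 96 h (−1.22) and 120 h (−0.0364), Del(CBS1-2) at 120 h (−1.82) and H3K27me3 (2.11), and T did for Del(CBS1) at 96 h (−2.15) and 120 h (−0.298) and Del(CBS1-2) at 96 h (−1.36). At the stricter threshold Mixl1 did for Del(CBS1-2) at 96 h (−0.600). With 1 library left out, Gsc spanned −0.820 to 1.82 for Del(CBS1) at 96 h (−0.0497 without its second library) and −9.55 to 1.51 for H3K27me3, and Lhx1 −0.949 to 1.86 for Del(CBS1-2) at 96 h. The calls gained were Gsc for Del(CBS1-2) at 96 h with equal lengths (3.42, limma adjusted p = 0.0332) and Mixl1 for H3K27me3 without the filter, where it was at 0% in both Del(CBS1-5) libraries. The causes were not tested. Counting bases with both marks only where the overlap was at least 50% of the shorter region changed none of these lengths.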

Other observations

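Across the 13 wt H3K27ac libraries, coverage of T and Mixl1 ran most alike among the 5 genes (Pearson r = 0.76), and Eomes and Lhx1 least (r = −0.07). The libraries share stages and depth, so these values are given as a description. Among genes at least 100 kb away, those closest to T were Ager (r = 0.932), Rnf5 (0.925) and Porcn (0.918), those closest to Eomes were Klhl40 (0.988), Kdf1 (0.988) and Foxe1 (0.984), and those closest to Mixl1 were Ptgs1 (0.971), 4930544D05Rik (0.967) and Chrne (0.967). For Gsc they were Tm9sf3 (0.937), Gm20449 (0.918) and Ostc (0.907), and for Lhx1 Mettl14 (0.924), Gpr20 (0.901) and Chrna3 (0.9). None of the 40 streak and mesendoderm genes was among these 15, and with 13 libraries and over 16633 genes compared, high values of r are frequent.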
